A study of Mus musculus with 2 samples.

Results

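The genes described here encode lipases, plasma lipid transfer and esterifying proteins, lipoprotein receptors and the assembly factor of very low density lipoprotein (VLDL), in mouse liver after injury to the kidneys. Members were the probe sets whose array annotation named exactly 1 gene, that gene being Lpl, Lipc, Lipg, Lcat, Scarb1, Lrp1, Vldlr, Mttp or Pltp. This gave 21 probe sets for 8 genes, out of 34945 probe sets for 18193 genes on the array. Lipc, the hepatic lipase, had no such probe set and was not analysed here. Liver RNA came from male wild-type C57BL/6 mice aged 8 weeks. In the renal ischaemia-reperfusion (IR) group both kidneys were made ischaemic, kept warm, for 30 minutes and then reperfused, while the other group had a sham operation, and livers were taken after 24 hours. In each group 100 mg of liver from 3 mice was combined into 1 pool and hybridised to 1 Affymetrix array. With 1 array per group and pooled mice there were no replicates, so no spread between mice, no error and no test can be given, and each value describes these 2 pools.

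Lipoproteins carry triglyceride and cholesterol in plasma. The liver assembles VLDL on apolipoprotein B, vascular lipases strip triglyceride and phospholipid from circulating particles, and hepatic receptors clear the remnants and take cholesterol from high density lipoprotein (HDL). Enzymes and transfer proteins secreted into plasma, several of them by the liver, remodel HDL in between.

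Most members differed by less than 2-fold between the pools, and endothelial lipase (Lipg) was the exception. By the probe set chosen to represent each gene, Lipg was 2.65-fold lower after renal IR. The HDL remodelling proteins Pltp and Lcat were 1.79-fold and 1.58-fold lower, below the 2-fold mark. Lrp1 and Vldlr were nominally lower, and Mttp, Lpl and Scarb1 nominally higher, all by less than 1.5-fold. The signs of Vldlr, Lpl and Scarb1 are not settled, as described below. Differences are given as the log2 of the signal after renal ischaemia-reperfusion minus that after sham surgery, each signal with 16 added, and folds are on the same scale. A gene was read by its brightest probe set among those whose signal reached the array median in at least 1 pool.

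Of the 8 members, 1 (12.5%) was at least 2-fold lower, against a background of 9.59% among 13117 genes. None of the 8 was at least 2-fold higher, against 8.71% of those genes. With so few members these shares do not set them apart from the background. Over probe sets past the filter, 2 of 15 members' probe sets (13.3%) were past 2-fold lower and 1 (6.67%) past 2-fold higher, against 10.8% and 10.4% of all 21003. The higher one (Vldlr) and 1 of the lower (Lipg) passed the filter through 1 pool only, the other signal being dim, so these shares support nothing about the members. The members' median difference was -0.35 and that of all genes -0.01. The former lies midway between Lrp1 (-0.44) and Vldlr (-0.27), whose other probe sets past the filter stood at -0.01 and 1.52. It thus depends on the choice of probe set.

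**Figure D1:**
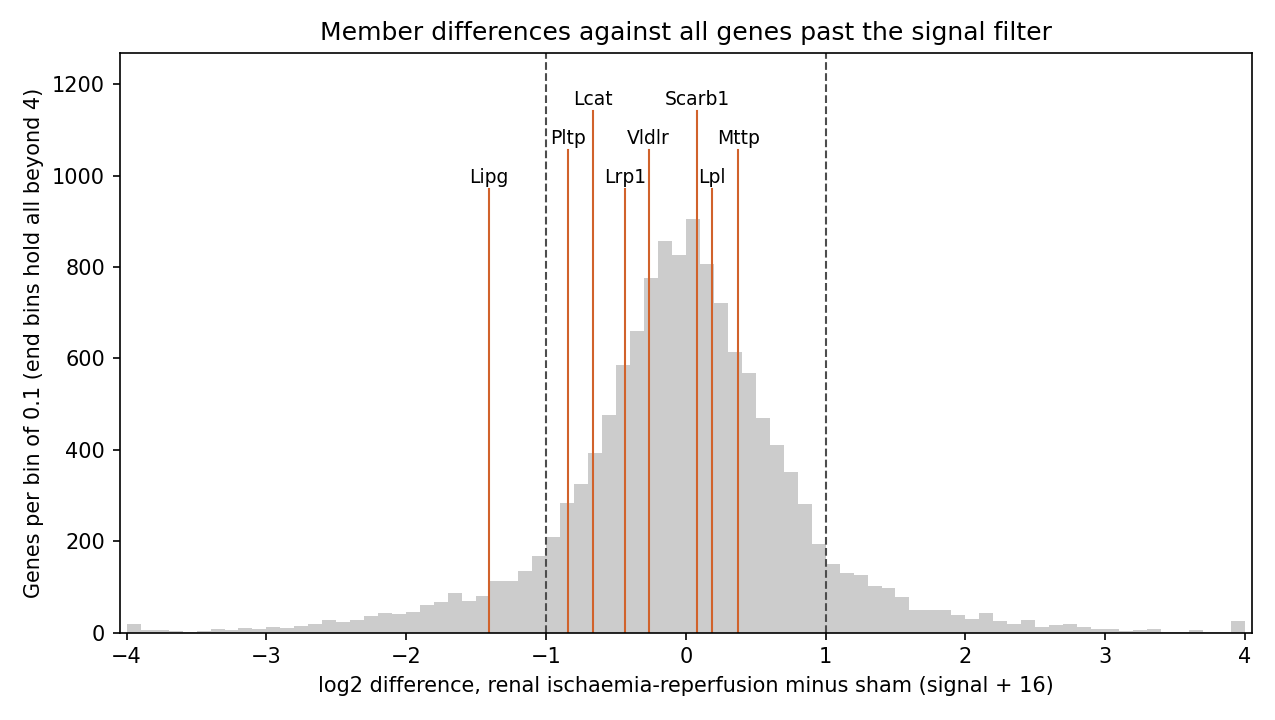
Histogram of the log2 difference (IR minus sham, horizontal axis) over 13117 genes, with the number of genes per bin on the vertical axis. Orange lines mark the 8 members and dashed lines the 2-fold marks; Lipg at -1.41 is the member outside them.

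Within the 2 arrays, probe sets of a gene can be compared, which measures neither the spread between mice nor that between arrays. The array median was 257.0 for sham and 254.1 for IR. Among 5028 genes with several probe sets, log2 differences within a gene had a standard deviation of 0.72, and 6 of the 8 members had a difference smaller in size than that. Of all genes, 33.1% had a difference at least as large in size as that of Lcat (-0.66), and 23.9% as that of Pltp (-0.84). Most genes were thus under 0.72 too, and the count does not set the members apart. Of the 6 members with at least 2 probe sets past the filter, 4 (66.7%) had the same sign in all of them, against 55.3% of the 5028 genes. Lipg and Vldlr, among these 6, had probe sets that passed through the sham pool only or the IR pool only, which fixes their sign. The share therefore supports nothing about the members. A signal under the array median is treated as dim, and a fold against it is given as a bound. Probe sets whose name ends in _s_at or _x_at may also bind other transcripts, and values from them are uncertain. Each of the 18 spiked hybridisation controls read higher in the IR pool, with a median of 0.28, so with them as the reference every difference is 0.28 lower. Higher genes then make up 27.3% instead of 47.6% of the genes past 2-fold.

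**Figure D2:**
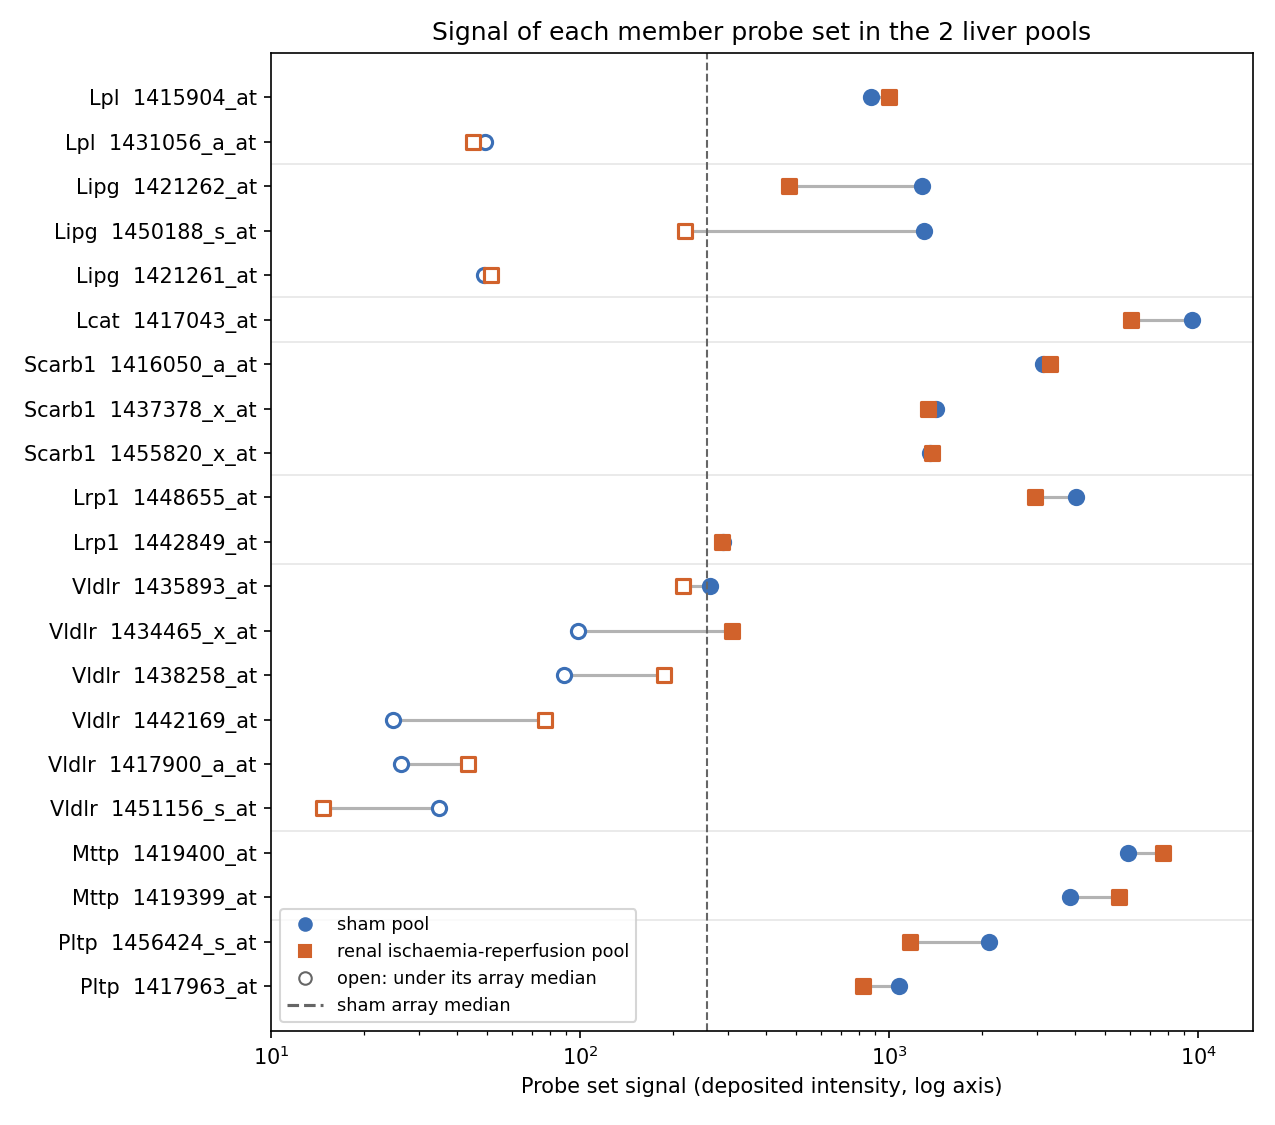
Signal (log axis, deposited intensity) of each of the 21 member probe sets in the sham pool (blue circles) and the IR pool (orange squares), with open symbols for signals under their own array's median. Both probe sets of Lipg past the filter lie lower after renal IR, with 1450188_s_at having passed through the sham pool only. The 3 of Scarb1 are level, and 4 of the 6 of Vldlr are dim in both pools.

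Among the lipases, Lipg transcripts were lower after renal IR and Lpl transcripts were nearly level. Lipg encodes endothelial lipase, which mainly cleaves phospholipids of HDL and is made by endothelial cells and by liver. Its probe set 1421262_at read 1279 in sham liver and 472.8 in IR liver, a log2 difference of -1.41. The second, 1450188_s_at, had 1300.2 and 218.0, which is at least 4.87-fold lower because the second signal was dim, although its name ends in _s_at. The third, 1421261_at, was dim in both pools, with 48.9 and 51.6, and gives no fold. Both probe sets past the filter were thus lower but differed in size, with -1.41 and -2.49 as measured. The second passed the filter through the sham pool only, so it could only read lower. It was also annotated to the same source sequence as the first. It is therefore no independent support for the first. Of all genes, 5.55% had a difference as low as that of Lipg.

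Lpl encodes lipoprotein lipase, which hydrolyses triglyceride of VLDL and chylomicrons at the capillary wall and is made chiefly in fat and muscle. Probe set 1415904_at read 872.4 in sham liver and 996.0 in IR liver, a difference of 0.19. Differences at least that large in size were seen for 75.7% of all genes. With the hybridisation controls as the reference the difference was -0.10, so its sign is not settled. The other probe set, 1431056_a_at, was dim in both pools at 49.1 and 44.9.

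Several genes of lipase control read higher in the IR pool, and others lower. The list held 17 measured genes that activate, inhibit, anchor or fold vascular lipases, or that act as or on intracellular lipases. Of the 17, 4 were at least 2-fold higher, 1 was at least 2-fold lower and 12 lay between. Their median was 0.07, and the shares to read these and the following counts against are the 8.71% and 9.59% of all genes. The highest were Abhd5, the activator of adipose triglyceride lipase, Apoc2, the cofactor of lipoprotein lipase, and Apoa5, which promotes its action. Abhd5 had signals of 701.5 and 2731 in sham and IR liver (1.94), though its 3 probe sets ranged from -0.53 to 1.94 and their mean was 0.68. Apoc2 went from 7261 to 24921, 3.43-fold higher by its single probe set. Apoa5 went from 20383 to 50524 (1.31), and by quantile normalization stood at 0.94, under the 2-fold mark.

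Angptl4, a secreted inhibitor of lipoprotein lipase, went from 3904.6 to 7828.5, just past the 2-fold mark, by an uncertain probe set (_s_at). It fell short of 2-fold by quantile normalization (0.98), a pseudocount of 64 (0.99) and the hybridisation controls (0.72). Gpihbp1, which anchors lipoprotein lipase to the capillary wall, had 1986 and 1995.5, a difference of 0.01. Apoc3, an inhibitor of triglyceride clearance, had 27390 and 31176 (0.19), but was lower by quantile normalization (-0.16) and with the hybridisation controls as reference (-0.10). Angptl8 had 472.2 and 409.5 (-0.20).

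Lmf1, a membrane protein needed to fold lipoprotein, hepatic and endothelial lipase, was the lowest of that list. It had signals of 1142.5 and 437.9 (-1.35) by its brighter probe set and -0.10 by its other, so the mean of both was -0.72. Pcsk5, a proprotein convertase, stood at -0.46 and Mgll, monoglyceride lipase, at -0.34 by an uncertain probe set (_s_at). Both genes had probe sets of either sign.

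Both HDL remodelling members were lower after renal IR, neither by 2-fold. Lcat encodes the plasma enzyme that esterifies cholesterol on HDL and is made by hepatocytes. Its single probe set, 1417043_at, read 9591 in sham liver and 6055 in IR liver, a difference of -0.66. Of all genes, 16.9% were as low. Pltp encodes phospholipid transfer protein, which moves phospholipid between lipoproteins. Probe set 1456424_s_at had 2098.5 and 1166 (-0.84), and is uncertain, while 1417963_at had 1076 and 825.7 (-0.38). Both probe sets of Pltp were lower, by 1.79-fold and, without the _s_at probe set, by 1.30-fold. With the hybridisation controls as the reference Pltp stood at -1.12 and Lcat at -0.95.

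Other HDL genes lay on both sides of 0. Of 17 measured genes of HDL structure, sterol efflux and their nuclear receptors, 2 reached 2-fold higher, 2 reached 2-fold lower and 13 neither, for a median of 0.01. Apoa4, an apolipoprotein of intestine and liver, was the highest, at 1365 and 35508 in sham and IR liver (4.68) by an uncertain probe set (_x_at). Abca1, which loads lipid onto nascent HDL, went from 5836 to 15672 (1.42), and all 3 of its probe sets lay between 1.42 and 1.97. Pla2g12b, a secreted phospholipase-like protein of hepatocytes, stood at 0.80. The lowest were Nr1h4, the bile acid receptor FXR, with 1816 and 592.4 (-1.59), Abcg5, a sterol exporter of the bile canaliculus, with 2254.5 and 1017.5 (-1.14), and Pon3, a paraoxonase carried on HDL (-0.89). Apoa1, the main HDL protein, had 49359 and 69348 (0.49), and stood at -0.05 by quantile normalization, so its direction is not settled.

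Of the 3 uptake receptors, none differed by 2-fold by its representative probe set. Scarb1 encodes scavenger receptor BI, through which hepatocytes take cholesteryl ester from HDL. Its 3 probe sets were almost level, with differences of either sign. Probe set 1416050_a_at had 3137 in sham and 3324 in IR liver (0.08), 1437378_x_at had 1418 and 1335 (-0.09), and 1455820_x_at had 1354.5 and 1379 (0.03). Of 1855 genes with at least 3 probe sets past the filter, 2 (0.108%, Scarb1 among them) kept every difference this small, a comparison chosen after the values were seen. With the hybridisation controls as the reference Scarb1 stood at -0.20.

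Pdzk1, the scaffold that holds scavenger receptor BI at the hepatocyte surface, was far lower while the receptor's own transcript was level. Its single probe set read 1470.3 in sham liver and a dim 167.6 in IR liver, which is at least 5.50-fold lower. It was the lowest gene, as measured, of the list of uptake receptors and partners.

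Lrp1 encodes the large endocytic receptor that clears chylomicron remnants and many other ligands. Probe set 1448655_at had 4012.5 in sham and 2959.5 in IR liver (-0.44), while 1442849_at had 289.9 and 287.1 (-0.01), signals only just above the array median. The brighter probe set is thus 1.35-fold lower and the weaker one is level. Lrpap1, the chaperone that keeps Lrp1 and its relatives from binding ligands in the endoplasmic reticulum, had 1469.9 and 582.0 (-1.31) by its brightest probe set. Its 4 probe sets ranged from -1.31 to 0.23, with a mean of -0.50. Snx17, a sorting nexin that recycles Lrp1 to the surface, stood at 0.80 by an uncertain probe set (_s_at).

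Vldlr encodes the VLDL receptor, which binds apolipoprotein E-rich particles and is known from heart, muscle and fat more than from liver. Of its 6 probe sets 4 were dim in both pools and the others dim in 1. Probe set 1435893_at had 262.4 in sham and 215.4 in IR liver (-0.27), at least 1.03-fold lower. Probe set 1434465_x_at had 98.1 and 311.1 (1.52 as measured), at least 1.20-fold higher, and is uncertain. The remaining probe sets had 88.4 and 186.3, 24.8 and 77.2, 26.2 and 43.2, and 34.9 and 14.7. By measured signal 4 of the 6 were higher after renal ischaemia-reperfusion and 2 were lower, so no direction is given for Vldlr.

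Among 20 measured partners and relatives of these receptors, 1 reached 2-fold higher, 4 reached 2-fold lower and 15 neither, for a median of -0.16. Sdc1, the heparan sulphate proteoglycan that captures remnants on hepatocytes, had 3434 and 10329 (1.58) by an uncertain probe set (_x_at), and its 4 probe sets ranged from 0.37 to 1.58. Lrp10 stood at 0.96. Hspg2, the basement membrane proteoglycan perlecan, had 3121 and 1305 (-1.25), with its other probe set at 0.31. The fourth gene at least 2-fold lower as measured was Lrp4, with 379.4 and a dim 164.6, a bound of 1.46-fold. Cd36, a fatty acid and scavenger receptor, stood at 0.60.

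**Figure D3:**
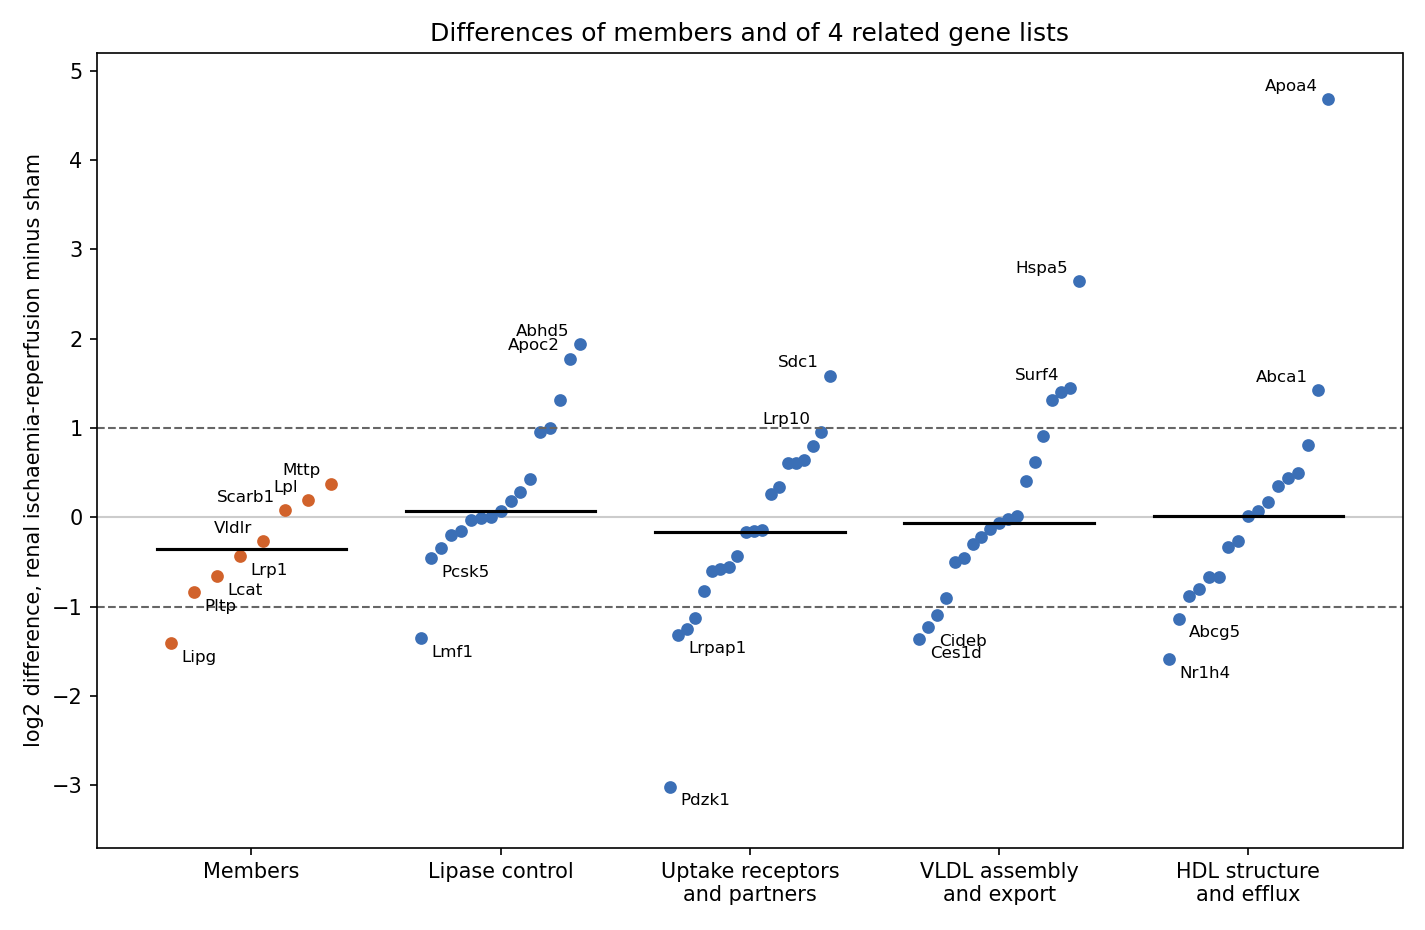
Log2 difference (vertical axis, IR minus sham) of each measured gene of the members (orange) and of 4 related lists (blue), sorted within each list, with black bars at list medians and dashed lines at 2-fold. The member median is -0.35, midway between Lrp1 and Vldlr, and depends on their choice of probe set. The list medians lie between -0.16 and 0.07, while single genes such as Pdzk1 (-3.02 as measured, with a dim IR signal) and Apoa4 (4.68) lie far outside.

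Mttp was nominally higher by both of its probe sets, under 2-fold. It encodes the large subunit of the microsomal triglyceride transfer protein, which loads lipid onto apolipoprotein B in the endoplasmic reticulum. Probe set 1419400_at had 5917 in sham and 7685 in IR liver (0.38), and 1419399_at had 3836 and 5529 (0.53). The difference was 0.09 with the hybridisation controls as the reference. Differences at least as large in size as 0.38 were seen for 55.2% of all genes. P4hb, protein disulphide isomerase, which is the other subunit of the transfer protein, had 29721 and 55765 (0.91), and stood at 0.46 by quantile normalization. Apob itself had 8043 and 6889 (-0.22) by its brighter probe set and 2.02 by its other, so its direction is not settled. Tm6sf2, a membrane protein of VLDL lipidation, had 814.8 and 826.2 (0.02), and Sar1b, the GTPase for export of lipoprotein from the endoplasmic reticulum, had 8681.5 and 6339 (-0.45).

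The list of VLDL assembly and export genes held members far from 0 on either side. Of 19 measured genes, 4 reached 2-fold higher, 3 reached 2-fold lower and 12 neither, for a median of -0.06. Hspa5, the chaperone BiP, went from 8866 to 55610 (2.65, its 3 probe sets 1.89 to 2.86), Surf4, a cargo receptor, from 4257 to 11649 (1.45), and Sec24d, a coat protein of export vesicles, from 1750.0 to 4657.5 (1.40). Pdia3 was the other, at 1.31, with its second probe set at 0.11. Ces1d, a carboxylesterase that mobilises stored triglyceride, went from 14064 to 5460.5 (-1.36), Cideb, a lipid droplet protein that enlarges VLDL, from 7002 to 2976 (-1.23) by an uncertain probe set (_s_at), and Dgat2, which makes triglyceride, from 11918 to 5555 (-1.10). Dgat2 fell short of 2-fold by the mean of its probe sets (-0.92), and Ces1d by its probe set closest to 0 (-0.98). Other vesicle transport genes of the list lay on both sides of 0. Mia3 stood at -0.90 by an uncertain probe set (_s_at), its 4 probe sets from -1.16 to -0.69. Mia2 stood at -0.50, Sec23a at -0.30 and Sec24a at -0.06. Sar1a stood at 0.40 (2 probe sets, 0.40 and 1.36) and Arf1 at 0.62 (3 probe sets from -0.02 to 0.62). Dgat1, which also makes triglyceride, stood at -0.13 by its brighter probe set, an uncertain one (_s_at), and 2.16 by its other. Its direction is not settled. Mia3, Mia2, Sec23a, Sec24a, Sar1a, Arf1 and Dgat1 were named after their values were seen.

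Cells other than hepatocytes carry several of these transcripts, and in a bulk sample fewer cells of a type and less RNA per cell cannot be told apart. The brightest marker of a list is the one with the highest mean log2 signal over both pools. All 10 hepatocyte markers passed the filter, but so did all 6 pancreatic acinar markers, so passing it does not identify the tissue. The hepatocyte markers had a summed signal of 372153 and 483241, against 3404 and 9024 for the acinar ones. Apoa1 was the brightest hepatocyte marker, and the median difference was 0.43. Of the 10 hepatocyte markers, 1 (Fgb) was past 2-fold higher and 1 (Cps1) past 2-fold lower. Of 11 Kupffer cell and macrophage markers, cells that also express Lpl and Lrp1, none was past 2-fold higher and 2 (Cd5l and C1qa) past 2-fold lower, for a median of -0.38. C1qa had a bound of 3.61-fold against a dim IR signal, while C1qb stood at -0.18 and C1qc at -0.07. Marco stood at 0.18 by an uncertain probe set (_s_at), with its other probe set at 2.58. The summed signal of the 11 markers was 14204 in sham and 10006 in IR liver, and the brightest, Csf1r, stood at -0.24. Of 10 measured sinusoidal endothelial markers, cells that also express Lipg, 1 was past 2-fold higher and 2 past 2-fold lower as measured, for a median of -0.40. Their summed signal over 11 genes was 9449.5 and 9517.5, with Fcgr2b the brightest (-0.30). Lyve1 was the higher one, with 326.8 and 2740.5 (3.01), and the nearly level sum rests on it. Clec4g stood at -1.05, and Oit3, with 307.5 and a dim 33.6, had a bound of only 1.20-fold lower.

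Stellate cell and fibroblast markers had a median of -0.40 over 8 measured genes, 1 past 2-fold in each direction as measured (Dcn higher, and Lrat lower with a bound of 1.34-fold against a dim signal), and a summed signal over 9 genes of 11268 and 14626, led by Dcn (1.02). Of 5 adipocyte markers, 3 (among them Adipoq, at 38 and 25) were dim in both pools, Retn stood at 0.16, and Fabp4 was at least 20.9-fold higher against a dim 240.2, with its 4 probe sets from -0.06 to 4.48. Their summed signal was 1524 and 7157. Of 6 muscle markers 4 were dim in both pools, and the brightest, Ckm, had 797.3 and 260.6, with a summed signal of 1111 and 823.2. Recruited myeloid cells had 2 of 5 measured markers at least 2-fold higher and none lower. Their summed signal over 7 genes was 3249 and 5069, with Elane the brightest (-0.44). The 2 higher ones were S100a8, from a dim 45.6 to 1407 by an uncertain probe set (_s_at), and S100a9, from a dim 204.8 to 788.1. Both thus passed the filter through the IR pool only. Of 5 biliary epithelium markers (summed signal 761.7 and 2468.5, Sox9 the brightest), 3 were measured, and these 3 were past 2-fold higher as measured. Krt19 (a bound of 1.93-fold) and Epcam (4.38-fold, by an uncertain _x_at probe set) were dim in sham and passed the filter through the IR pool only. Krt7 (81.3 and 32.0) and Cftr (108.6 and 15.2) were dim in both pools and read lower. Of 6 pancreatic acinar markers (3404 and 9024, Cela1 the brightest), 5 were at least 2-fold higher. Of these, Cpa1, Cpb1 and Ctrb1 were dim in sham and passed through the IR pool only. Prss2 (1.15, by an uncertain _x_at probe set) and Cela2a (2.08) were above the median in both pools. Of 8 kidney tubule markers, 5 were measured and none of these was past 2-fold (3431 and 3288, Lrp2 the brightest). The part of any of these cell types in the member differences was not tested.

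Over the alternatives tried, Lipg, Lcat, Lrp1, Mttp and Pltp did not change sign, although a gene with 1 probe set, such as Lcat, cannot move under a change of filter or probe set. Lcat lay between -0.95 and -0.65, Pltp between -1.12 and -0.38, Lrp1 between -0.72 and -0.01 and Mttp between 0.09 and 0.53. Lpl turned with the hybridisation controls as the reference, Scarb1 there and by the probe set with the largest difference, and Vldlr by that probe set and by the mean of its probe sets.

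**Figure D4:**
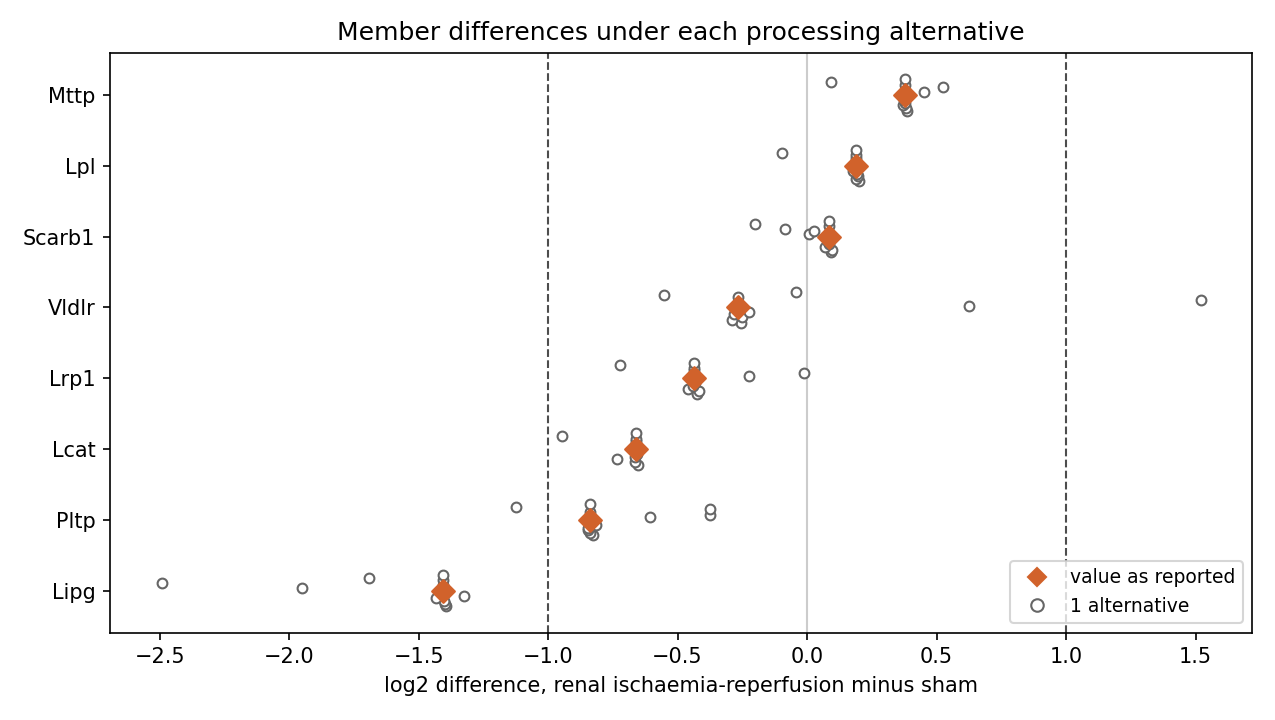
Log2 difference (horizontal axis, IR minus sham) of each of the 8 members as reported (orange diamonds) and under each processing alternative (open circles), with dashed lines at 2-fold. Lipg stays between -2.49 and -1.32, whereas Vldlr spans -0.55 to 1.52.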

How the data were processed

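The authors deposited 1 linear intensity for each probe set and array. Per the labels' protocols, Trizol RNA was extracted and 6 ug of it was made into biotin-labelled cRNA for Affymetrix arrays. No source used here gives the summarisation software, background handling or filters. A mean trimmed by 2% at each end was 500.0 on both arrays. Genes were named by the platform annotation, which can be old, with symbols updated through Entrez IDs; 932 probe sets named several genes and 9160 none, and neither were used. No build applies, so no coordinates are given. Computations used Python 3.11.15, numpy 2.4.6 and pandas 2.3.3, and were tested on simulated data.

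Named genes were the members, up to 3 highest and 3 lowest genes of each related list, a fixed panel, and the brightest gene of each marker list; Lrp4, Pdia3 and the extra marker genes were named after their values were seen. Members and lists were chosen with earlier results of these data known. Alternatives were centring, loess over a span of 0.3, quantile normalization, a pseudocount of 1 or 64, a filter at the 75th percentile or none, other choices of probe set, other fold thresholds and dim signals raised to the median. The hybridisation controls as reference, and dim signals raised for single members, were added after seeing the data.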

Additional observations from a re-analysis of the deposited data

How the results depend on the processing

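Lipg was at least 2-fold lower under every alternative to scaling, filter, pseudocount or probe set tried (-2.49 to -1.32), with -2.49, as measured against a dim signal, by the probe set with the largest difference. Vldlr turned from -0.27 to 0.63 by the mean of its probe sets and 1.52 by the one with the largest difference, which gave 1 member at least 2-fold higher. The count of lower members was 3 at 1.5-fold, 0 at 3-fold and 2 with the hybridisation controls as reference, by construction of those settings. With those controls the list medians were -0.22 for lipase control, -0.45 for uptake, -0.35 for assembly and -0.27 for HDL genes. The uptake median was 0.033 by the probe sets with the smallest difference, and the HDL median -0.37 by quantile normalization and -0.18 by the largest difference; the cause was not tested. A value counted as moved past 0.72, the standard deviation between probe sets of a gene, or for a list past that over the square root of its size. Over the whole array, 1143 higher and 1258 lower genes became 682 and 797 with the stricter filter, 1763 and 1847 by the largest difference, and 756 and 2016 against the controls. Vldlr did not pass a filter at the 75th percentile. No paired analysis was possible because each group has 1 array, and no replicate could be left out. The number of arrays and the dim signal of Vldlr limit precision.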

Other observations

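Several lipid genes of the related lists had probe sets that disagreed widely, which bears on any single value given for them. Lipe, hormone-sensitive lipase, stood at -0.16 by its brighter probe set and at -2.48 by its other, and Lipa, lysosomal acid lipase, had 3 probe sets from -1.11 to -0.01. Pcsk5 had 3 probe sets past the filter that ranged from -0.46 to 1.70. Sel1l, a partner of Lmf1 in lipase folding, was more even, with all 5 probe sets between 0.93 and 1.31, as was Surf4, with all 5 between 1.14 and 1.48. Except for Pcsk5 and Surf4, these genes were chosen after their values were seen.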
